A study of Mus musculus with 2 samples.

Results

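The 10 genes described here encode transcription factors that pattern the limb and mark its mesenchyme. They were taken by symbol, with no threshold on their levels, but the list was chosen with earlier results of these data known. Counts and medians of members set beside those of all genes are therefore a description and no independent support. The genes are Prrx1 and Prrx2, Twist1 and Twist2, Osr1 and Osr2, and Tbx15, Tbx18, Tbx4, and Pitx1, 10 of 32288 features in the deposited gene list. The question was in which stromal cell types of the mouse periosteum each factor was detected, and whether its level followed that of Prrx1 from type to type. Cells had been peeled with the periosteum from femurs and tibias of C57BL6 mice labelled WT, 4 weeks old, digested with collagenase, and sorted as CD45−, CD31−, and Ter119− to leave out blood and endothelial cells. They were measured by 10x 3′ scRNA-Seq in 2 libraries of the same condition, labelled replicates 1 and 2. No treatment is named, and neither is the number of mice behind a library, so the p-values below measure the spread between these libraries, which may be technical.

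Prrx1 and Prrx2 are paired-related homeodomain proteins of limb bud and craniofacial mesenchyme, and Prrx1 regulatory DNA is widely used to mark or recombine limb mesenchyme in mice. Twist1 and Twist2 are bHLH factors that bind E-boxes as dimers with broadly expressed partners, and both are known for holding back osteoblast differentiation. Osr1 and Osr2 are zinc finger factors, and Osr1 marks the connective tissue of the limb, including fibro-adipogenic progenitors of muscle. Tbx15 and Tbx18 are closely related T-box factors, and Tbx18 is well known in mural cells of vessels. Tbx4 and Pitx1 are the classical factors of hindlimb identity, as Tbx5 is of the forelimb.

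The filters kept barcodes with at least 500 genes, at least 500 UMIs (unique molecular identifiers, which count captured transcripts), and at most 10% mitochondrial UMIs. They left 6276 cells in library 1 and 2893 in library 2, with medians of 8164 and 6279 UMIs. Of these, 7597 cells fell into hematopoietic clusters in spite of the sort, and 1572 were stromal, 448 in library 1 and 1124 in library 2. The stromal cells formed 14 clusters, and the members were kept out of the genes used for clustering and naming. Clusters were named from marker genes as fibroblast-like (20 cells in library 1 and 293 in library 2), osteoblast-like (88 and 171), chondrocyte-like (27 and 122), skeletal muscle-like (70 and 63), Lepr+ stromal-like (65 and 7), tenocyte-like (2 and 91), and smooth muscle-like (4 and 20). Clusters that no marker list named are given by number. They are cluster 2 (led by Mmp9, Hist1h2ap, and Birc5; 58 and 101 cells), cluster 4 (Col10a1, Mgp, and Aldh1a3; 70 and 74 cells), cluster 7 (Tcim and Ddit4l; 27 and 75 cells), and cluster 9 (Msmp, Cytl1, and Prg4; 74 cells, all in library 2). Cluster 12, a mixed cluster of 17 and 33 cells with many hematopoietic markers, was left out. Libraries shared 8 barcodes, of which 7 were kept. Both libraries held UMIs of the reporter tdTomato, and library 2 held UMIs of EGFP, although the label gives wild-type mice. The fibroblast-like cells of library 1 carried neutrophil markers at 18690 CPM (counts-per-million, the UMIs of a gene scaled by all UMIs that its class held in that library) against 37.4 CPM in library 2, and the Lepr+ stromal-like cells of library 1 carried erythroid markers at 21190 CPM against 336.4 CPM in library 2. In library 1, 1 of the 20 fibroblast-like and 5 of the 65 Lepr+ stromal-like cells held over 1% of their UMIs in hematopoietic markers. The part of these markers in the values below was not tested beyond the removal of single barcodes that carried hematopoietic UMIs. That removal left the same number of members past the threshold in each comparison of fibroblast-like, osteoblast-like, and chondrocyte-like cells.

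Stromal cells held 92.7% to 100% of each member's UMIs in library 1 and 97.8% to 100% in library 2. All levels are in CPM. Ranges in parentheses are exact 95% intervals that cover counting error only. CPM is compared between classes for a given gene and not between genes, since transcripts of different genes are captured with different efficiency. Where classes are put in order, a class enters with each library in which it had at least 8 cells, and neighbours are called apart where no interval of the higher class reaches down to one of the lower. B cell-like cells served as the background from free RNA. There, 1 of 1946 cells in library 1 and 2 of 1034 in library 2 had a Prrx1 UMI, at medians of 3333 and 3602 UMIs per cell, for 0.084 and 0.363 CPM.

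Promoter sequence is shown for 3 members. Prrx1 is the reference of the whole comparison, and Twist1 and Twist2 are the related genes whose levels parted in osteoblast-like cells. RefSeq promoter windows of GRCm38.p6 were at hand for 6 of the 10 members, and after bases annotated as untranslated regions of transcripts were trimmed, windows of 5 remained. Sequences are written 5′ to 3′ on the strand of the gene, and capitals mark a TAATTA match, the core of homeodomain sites, or a TATAAA match. Both strands were searched, for CANNTG (the E-box) as well, and no window of these 3 held an E-box. The Prrx1 window lies on the minus strand at chr1:163313711-163313900, directly before the gene. The Twist1 window lies on the plus strand at chr12:33957421-33957670, and that of Twist2 on the plus strand at chr1:91801211-91801460.
Prrx1: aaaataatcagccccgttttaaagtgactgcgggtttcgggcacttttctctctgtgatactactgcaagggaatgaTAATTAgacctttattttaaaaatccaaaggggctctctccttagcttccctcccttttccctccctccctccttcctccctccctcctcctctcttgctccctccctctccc
Twist1: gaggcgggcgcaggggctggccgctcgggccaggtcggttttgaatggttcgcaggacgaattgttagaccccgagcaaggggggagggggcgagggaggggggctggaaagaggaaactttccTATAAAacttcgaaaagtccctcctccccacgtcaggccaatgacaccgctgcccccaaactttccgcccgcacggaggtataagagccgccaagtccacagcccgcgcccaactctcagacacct
Twist2: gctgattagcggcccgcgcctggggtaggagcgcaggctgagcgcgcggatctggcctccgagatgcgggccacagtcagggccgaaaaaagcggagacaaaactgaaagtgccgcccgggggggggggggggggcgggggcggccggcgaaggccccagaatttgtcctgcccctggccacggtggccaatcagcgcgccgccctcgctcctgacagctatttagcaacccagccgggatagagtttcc
The 190 bases of Prrx1 held 1 TAATTA match, which 4.02% of 32851 promoter windows of that length hold. The 250 bases of Twist1 held 1 TATAAA match, found in 12.4% of windows of that length, and those of Twist2 held no match to any of the 3 motifs. E-boxes were found in 57.3% of windows of 190 bases and 66.2% of windows of 250 bases. In the 250 bases of Tbx18 there was 1 E-box, and in those of Tbx4 there were 3. The Tbx4 window, at chr11:85896515-85896764, lies inside the gene as annotated and not before it. These matches are a description of letters and not of binding.

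Prrx1 (ENSMUSG00000026586, minus strand of chromosome 1, 163245119–163313710) was highest in smooth muscle-like, fibroblast-like, and Lepr+ stromal-like cells. It was lowest in cluster 7, chondrocyte-like cells, and cluster 4. Smooth muscle-like cells had 631 CPM (501–784) in the 20 cells of library 2, which overlapped with fibroblast-like cells. Their 4 cells of library 1 had 7 Prrx1 UMIs and did not enter the order. Fibroblast-like cells had 524 CPM (441–620) in library 1 and 295 CPM (275–316) in library 2. Lepr+ stromal-like cells had 315 CPM (267–369) in library 1 and 308 CPM (154–552) in the 7 cells of library 2. Fibroblast-like cells were thus 1.67 times (1.31–2.11) above Lepr+ stromal-like cells in library 1, and in library 2 the ratio of 0.955 (0.531–1.92) did not differ from 1 beyond counting error. A step without overlap led from Lepr+ stromal-like cells of library 1 to tenocyte-like cells, with 199.7 CPM (170.3–233) in library 2. That step lies between libraries, and within library 2 the intervals of the 2 classes overlapped. Cluster 2 had 189.9 CPM (154.9–231) in library 1 and 112 CPM (92.4–134) in library 2, and osteoblast-like cells had 138 CPM (124–154) and 70.9 CPM (61.7–81.2). Prrx1 was therefore found far above the B cell-like level in osteoblast-like cells, where 84.1% of cells in library 1 and 56.7% in library 2 had a Prrx1 UMI. Cluster 9 had 97.0 CPM (75.8–122) in library 2, and skeletal muscle-like cells had 75.2 CPM (42.1–124) and 64.3 CPM (37.5–103), from 15 and 17 UMIs. Another step without overlap followed, to the 17.2 and 6.45 CPM of cluster 7. Chondrocyte-like cells had 4.40 CPM (1.199–11.3) in library 1 and 6.28 CPM (3.98–9.42) in library 2. Cluster 4 had no Prrx1 UMI in the 70 cells of library 1, where 3 UMIs would be 5.85 CPM, and 3 UMIs in the 74 cells of library 2.

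Because cells of these classes differed in depth, the share of cells with a Prrx1 UMI was also computed for cells thinned to 1000 UMIs each. It was 39.0% and 24.9% in fibroblast-like cells of libraries 1 and 2 (95% and 80.9% before thinning, medians of 12388 and 9198 UMIs) and 12.8% and 7.12% in osteoblast-like cells (medians of 29216 and 16543 UMIs). In chondrocyte-like cells, with medians of 34081 and 30323.5 UMIs, it was 0.297% and 0.757% (3.70% and 11.5% before thinning), and in B cell-like cells 0.0125% and 0.0566% (0.0514% and 0.193% before thinning). Thinning left out 2 fibroblast-like cells of library 2 and 8 and 5 B cell-like cells, and no osteoblast-like or chondrocyte-like cells. The order of fibroblast-like, osteoblast-like, and chondrocyte-like cells by thinned share was the order by CPM in each library. At a fixed 1000 UMIs per cell the share largely restates CPM, so this order is no separate support.

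**Figure D1:**
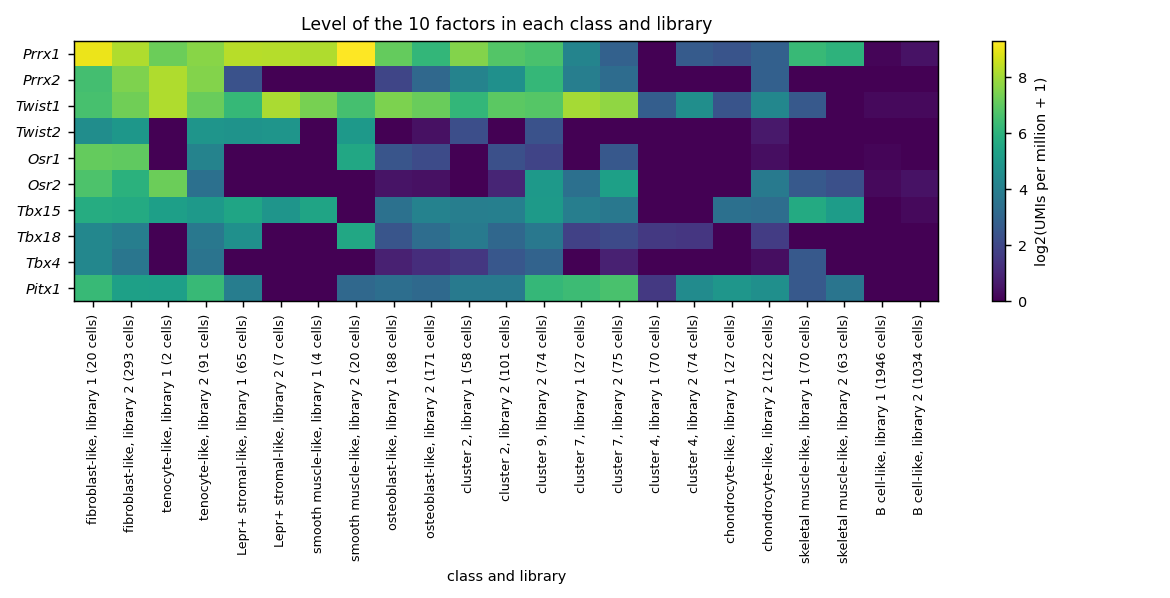
Level of the 10 factors as log2(CPM + 1) by color, with factors in rows and each class in each library in columns, the number of cells given beside each name. Prrx1 is bright from fibroblast-like to osteoblast-like columns, whereas Osr1 and Osr2 are bright in the fibroblast-like columns and at 0 in the Lepr+ stromal-like columns.

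Prrx2 (ENSMUSG00000039476, plus strand of chromosome 2, 30834972–30881251), the paralog of Prrx1, was found at such levels in fewer classes. Tenocyte-like cells had 189 CPM (160.2–221) in library 2, fibroblast-like cells had 91.2 CPM (58.4–136) in library 1 and 181 CPM (166–198) in library 2, and cluster 9 had 72.4 CPM (54.3–94.7) in library 2. In this order neighbours overlapped, and a step without overlap followed, to 16.8 and 24.6 CPM in cluster 2. Osteoblast-like cells had 2.84 CPM in library 1 and 7.73 CPM in library 2, from 7 and 23 UMIs. In Lepr+ stromal-like cells, where Prrx1 was high, Prrx2 had 2 UMIs in library 1 and none in library 2, and smooth muscle-like and skeletal muscle-like cells had none in either library. Set against 100 Prrx1 UMIs, Prrx2 had 17.4 (10.8–27.0) and 61.6 (55.0–68.9) UMIs in fibroblast-like cells of libraries 1 and 2, and 94.5 (75.4–118) in tenocyte-like cells of library 2. For osteoblast-like cells the values were 2.05 (0.819–4.28) and 10.9 (6.76–16.8), and 1.31 (0.157–4.80) in Lepr+ stromal-like cells of library 1. The fibroblast-like ratio differed between libraries beyond counting error, and so did the osteoblast-like ratio.

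Twist1 (ENSMUSG00000035799, plus strand of chromosome 12, 33957671–33959829) was highest in a cluster where Prrx1 was low. Cluster 7 had 261 CPM (214–316) in library 1 and 214 CPM (189–242) in library 2, on 106 and 266 UMIs, where Prrx1 had 7 and 8. It carried the hypertrophic chondrocyte markers at 71440 and 63970 CPM summed over the 8 listed genes, with none at 0 in either library. Of the 8, 3 counted as markers of cluster 7 and 0 were among its 10 leading genes, so it was not named. Cluster 2 also carried this list, at 33750 and 21370 CPM, beside the listed osteoblast markers at 40450 and 39480 CPM. Cluster 4, where Twist1 was low, carried the hypertrophic chondrocyte markers at 194000 and 130600 CPM. Osteoblast-like cells followed with 178 CPM (162–195) and 143 CPM (129.9–157.5), tenocyte-like cells with 144 CPM (119–172) in library 2, and fibroblast-like cells with 94.99 CPM (61.5–140.2) and 157 CPM (142–172). The cluster 7 level was 1.47 times (1.18–1.82) and 1.497 times (1.28–1.75) that of osteoblast-like cells in libraries 1 and 2. It was 2.75 times (1.76–4.44) and 1.37 times (1.17–1.597) that of fibroblast-like cells, with no test of either pair beyond counting error. From cluster 7 down to Lepr+ stromal-like cells of library 1, at 74.1 CPM, each class overlapped with the next. Lepr+ stromal-like cells of library 2 had 280.3 CPM from 10 UMIs. A step without overlap led to cluster 4, with 5.85 and 22.9 CPM, which was followed by chondrocyte-like cells, with 4.40 and 18.8 CPM. Skeletal muscle-like cells, where Prrx1 was at 75.2 and 64.3 CPM, had 1 Twist1 UMI in library 1 and none in library 2. Per 100 Prrx1 UMIs, Twist1 had 18.1 (11.3–27.9) and 53.2 (47.2–59.9) UMIs in fibroblast-like cells of libraries 1 and 2. The same ratio was 129 (111.5–149) and 202 (171–239) for osteoblast-like cells, and 1514 (709.9–3858) and 3325 (1663–7782) for cluster 7.

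Twist2 (ENSMUSG00000007805, plus strand of chromosome 1, 91801461–91848028) had in contrast 1 UMI in all osteoblast-like cells. Fibroblast-like cells had 22.8 CPM (8.37–49.6) in library 1 and 29.4 CPM (23.3–36.5) in library 2. Lepr+ stromal-like cells had 26.8 CPM (14.2–45.8) in library 1 and 28.03 CPM from 1 UMI in library 2. In library 2, tenocyte-like cells had 28.002 CPM (17.8–42.02) and smooth muscle-like cells had 31.1 CPM (8.49–79.7). These 4 classes, which were also the highest in Prrx1, overlapped throughout. Osteoblast-like cells had no Twist2 UMI in library 1 and 1 in library 2, chondrocyte-like cells had none and 2, and cluster 7, where Twist1 was highest, had none in either. In library 1, the Twist2 ratio of fibroblast-like to osteoblast-like cells had a lower limit of 11.04 from counting error, with no upper limit. With 3 UMIs set for osteoblast-like cells as the floor, that ratio would be 18.76. In library 2 it was 87.4 (15.25–3495). On the same scale of total UMIs, the Twist1 ratio was 0.534 (0.342–0.799) in library 1, below 1 beyond counting error, and 1.095 (0.955–1.25) in library 2.

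Osr1 (ENSMUSG00000048387, plus strand of chromosome 12, 9570116–9581500) and Osr2 (ENSMUSG00000022330, plus strand of chromosome 15, 35296098–35303305) were both highest in fibroblast-like cells. Osr1 had 137 CPM (95.8–189) in library 1 and 130.3 CPM (117–144.5) in library 2 there, so that the libraries agree within counting error. It had 46.7 CPM (17.1–102) in smooth muscle-like cells and 17.0 CPM (9.32–28.6) in tenocyte-like cells of library 2. Below tenocyte-like cells came a step without overlap to osteoblast-like cells, with 4.46 CPM (2.22–7.97) in library 1 and 3.36 CPM (1.61–6.18) in library 2. Chondrocyte-like cells had 1 Osr1 UMI in both libraries together. Osr2 had 103 CPM (67.6–149) and 61.0 CPM (52.1–70.9) in fibroblast-like cells. The next class, cluster 9, lay apart at 31.4 CPM (19.9–47.2), and it was followed by cluster 7 at 9.85 and 37.9 CPM. Chondrocyte-like cells had no Osr2 UMI in library 1 and 13.4 CPM (9.89–17.7) in library 2, while osteoblast-like cells had 1 UMI in each library. Lepr+ stromal-like cells had no UMI of Osr1 or Osr2 in the 65 cells of library 1, where 3 UMIs would be 6.17 CPM, and none in library 2. Over both libraries, the ratio of fibroblast-like to Lepr+ stromal-like cells had a lower limit from counting error of 18.41 in Osr1 and 9.046 in Osr2. With 3 UMIs set for the Lepr+ stromal-like class as the floor, these ratios would be 22.75 and 11.2. The ratio of Prrx1 was 1.00 (0.847–1.19) when both libraries were summed, a value that mostly sets fibroblast-like cells of library 2 against Lepr+ stromal-like cells of library 1, and within the libraries it was the 1.67 and 0.955 given above.

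Tbx15 (ENSMUSG00000027868, plus strand of chromosome 3, 99240381–99354259) was spread over most classes. It had 53.2 CPM (29.1–89.3) and 50.1 CPM (42.1–59.2) in fibroblast-like cells. Lepr+ stromal-like cells had 43.2 CPM (26.8–66.1) in library 1 and 1 UMI in library 2, skeletal muscle-like cells had 50.1 CPM (24.05–92.2) and 34.1 CPM (15.6–64.7), and tenocyte-like cells had 31.7 CPM (20.7–46.4) in library 2. Osteoblast-like cells had 10.1 and 16.5 CPM, and chondrocyte-like cells had 9.90 and 9.01 CPM. No neighbouring classes were apart, although cluster 4 had no Tbx15 UMI in either library. Smooth muscle-like cells had no Tbx15 UMI in the 20 cells of library 2, on which their high Prrx1 rests, and 1 in the 4 cells of library 1. In library 2, 3 UMIs would be 23.4 CPM, above the osteoblast-like and chondrocyte-like levels. Prrx1 and Tbx15 were thus both found in skeletal muscle-like cells, where Prrx2, Twist2, Osr1, and Tbx18 had no UMI. In these cells, 12 of 12 fibroblast markers were at 0 in library 1, and 10 of 12 were at 0 in library 2, where the other 2 summed to 11.4 CPM. Skeletal muscle-like cells had medians of 1947.5 and 2552 UMIs, and Tbx15 rested on 10 and 9 UMIs there.

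Tbx18 (ENSMUSG00000032419, minus strand of chromosome 9, 87702800–87731260) was low throughout. Smooth muscle-like cells of library 2 had 46.7 CPM (17.1–102), from 6 UMIs, Lepr+ stromal-like cells of library 1 had 24.7 CPM (12.8–43.1), and fibroblast-like cells had 19.0 CPM (6.17–44.3) and 14.9 CPM (10.7–20.2). Cluster 2 had 13.04 and 7.57 CPM, osteoblast-like cells had 4.46 and 9.08 CPM, and chondrocyte-like cells had none in library 1 and 2.18 CPM in library 2. Neighbouring classes in this order overlapped at every step. Skeletal muscle-like cells had no Tbx18 UMI, unlike its relative Tbx15.

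Of the hindlimb pair, Tbx4 (ENSMUSG00000000094, plus strand of chromosome 11, 85886422–85916097) had the fewest UMIs of the members. Fibroblast-like cells had 19.0 CPM (6.17–44.3) from 5 UMIs in library 1 and 11.6 CPM (7.94–16.4) from 32 UMIs in library 2. Tenocyte-like cells had 10.96 CPM (5.01–20.8) in library 2, and osteoblast-like cells had 0.810 and 1.35 CPM. Chondrocyte-like cells had 1 Tbx4 UMI in both libraries together, and Lepr+ stromal-like cells, smooth muscle-like cells, and cluster 4 had none. The ratio of fibroblast-like to osteoblast-like cells was 23.4 (3.84–246.3) in library 1, on 5 and 2 UMIs, and 8.63 (3.06–33.6) in library 2. Tbx4 did not pass the count filter of the test. Pitx1 (ENSMUSG00000021506, minus strand of chromosome 13, 55825051–55836192), which acts upstream of Tbx4 in the hindlimb bud, had another order. It was highest in cluster 7, with 81.3 CPM (55.9–114) and 97.5 CPM (80.9–116.5), followed by tenocyte-like cells with 76.7 CPM (58.9–98.1) and cluster 9 with 72.4 CPM (54.3–94.7) in library 2. Fibroblast-like cells had 76.0 CPM (46.4–117) in library 1 and 38.5 CPM (31.5–46.5) in library 2. Chondrocyte-like cells had 28.6 CPM (18.7–41.9) and 23.7 CPM (19.0–29.3). Osteoblast-like cells had 9.32 CPM (5.91–14.0) and 8.07 CPM (5.17–12.0). Chondrocyte-like cells and cluster 7, where Prrx1 was nearly absent, thus had more Pitx1 than osteoblast-like cells. Neighbouring classes in the order of Pitx1 overlapped at every step. Tbx5, the forelimb counterpart, had at most 2 UMIs in any stromal class of either library.

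For tests between classes, sums of UMIs per library and class were used, and a joint edgeR model took the 7 classes and clusters that had 10 or more cells in both libraries (quasi-likelihood test, n = 2 libraries per class, Benjamini-Hochberg adjustment across the 9846 genes tested, threshold 0.05). Of the 10 members, 9 passed the count filter. That filter asks for enough UMIs in at least 2 of the sums. Twist2, Osr1, and Tbx18 passed it through the fibroblast-like sums alone, and Osr2 would not have passed without them. Such members could hardly be called lower in fibroblast-like cells, so their calls as higher there are no independent support. Where Tbx4 entered with a sum left out, it also did so through a fibroblast-like sum. Any difference among the 7 classes passed the threshold for 9 of 9, where 66.6% of all genes tested did so. Fold changes are relative to the scaling of the model (TMM). The SE given with them is the size of the fold change divided by the square root of the F statistic, and not an error reported by the fit. With total UMIs alone as the scale, the median of all genes lay at 0.50 between fibroblast-like and osteoblast-like cells and at 0.40 between fibroblast-like and chondrocyte-like cells on the log2 scale.

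Against osteoblast-like cells, 6 of 9 members were higher in fibroblast-like cells and none was lower, where 17.5% of all genes tested passed, 10.6% higher and 6.88% lower. The higher genes made up 60.8% of all calls, and 78.4% with total UMIs as the scale. The 6 members were Osr2 (log2 fold change 6.90, SE 1.05, adjusted p = 0.00023), Twist2 (6.17, SE 1.16, adjusted p = 0.0015), Osr1 (4.54, SE 0.77, adjusted p = 0.00098), Prrx2 (4.21, SE 0.82, adjusted p = 0.0033), Pitx1 (2.08, SE 0.53, adjusted p = 0.013), and Tbx15 (1.43, SE 0.42, adjusted p = 0.031). The fitted values of Osr2 and Twist2 rest on 2 and 1 UMIs in osteoblast-like cells and depend on the prior count, as does their SE. Osr2, Twist2, and Osr1 had entered the test through the fibroblast-like sums. Prrx1 itself did not pass (1.39, SE 0.54, adjusted p = 0.094), although its CPM ratio to osteoblast-like cells was 3.80 (3.09–4.64) in library 1 and 4.15 (3.57–4.86) in library 2. It passed in 4 of 13 settings, among them the total UMI scale (1.97, adjusted p = 0.028) and the library as a block (1.42, adjusted p = 0.012). Twist1 (−0.81, SE 0.61, adjusted p = 0.44) and Tbx18 (0.75, SE 0.64, adjusted p = 0.50) did not pass. The median over the 9 members was 2.08, against 0 over all genes. A class sum was also left out in turn, with the lone sum assumed to vary like the other classes. Tbx15 was lost each time (adjusted p 0.064 and 0.204 without fibroblast-like replicates 1 and 2, 0.255 and 0.063 without osteoblast-like replicates 1 and 2), and Pitx1 was lost without fibroblast-like replicate 1 (0.070) and without osteoblast-like replicates 1 (0.075) and 2 (0.102). Members past the threshold then numbered 4 without fibroblast-like replicate 2, where Twist2 did not pass the count filter, 4 without either osteoblast-like sum, and 5 without fibroblast-like replicate 1, where Tbx4 entered the test and passed.

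Against chondrocyte-like cells, 8 of 9 members were higher in fibroblast-like cells and none was lower, where 21.8% of all genes tested passed, 12.2% higher and 9.61% lower. The higher genes made up 56% of all calls, and 74.1% with total UMIs as the scale. The largest fold changes were those of Osr1 (log2 8.34, SE 1.07, adjusted p = 0.00014, on 1 UMI in chondrocyte-like cells), Prrx1 (5.68, SE 0.67, adjusted p = 5.6e-05), Twist2 (5.33, SE 1.12, adjusted p = 0.0029, on 2 UMIs), and Prrx2 (4.69, SE 0.85, adjusted p = 0.0018). Twist1 (2.94), Tbx18 (2.92), Osr2 (2.84), and Tbx15 (2.02) passed with adjusted p of 0.0047, 0.011, 0.015, and 0.0049. Pitx1 did not pass (0.60, SE 0.52, adjusted p = 0.46). Of the 8 that passed, Osr1, Twist2, Tbx18, and Osr2 had entered the test through the fibroblast-like sums. The median of the members was 2.94, against −0.017 over all genes. Without fibroblast-like replicate 2, Twist1 (adjusted p = 0.065), Tbx15 (0.056), and Tbx18 (0.094) were lost, Twist2 did not pass the count filter, and Tbx4 entered the test and passed, for 5 members in all. Osr2 was lost without chondrocyte-like replicate 1 (0.056).

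**Figure D2:**
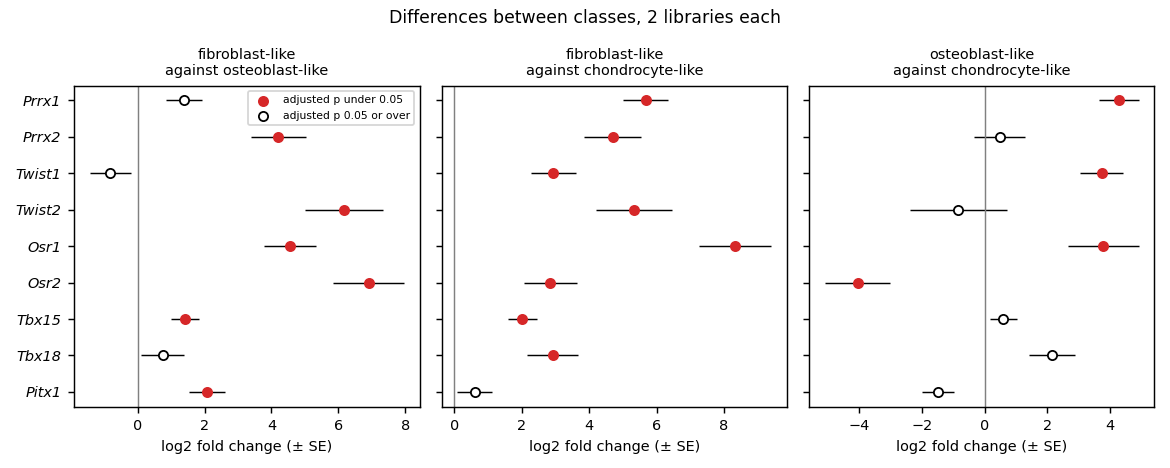
Log2 fold change of the 9 tested members in 3 comparisons of classes. Bars are 1 SE, the fold change divided by the square root of the F statistic. Filled red points mark an adjusted p of edgeR under 0.05. Against chondrocyte-like cells, 8 members lie to the right of 0 with filled points in fibroblast-like cells, whereas Osr2 lies to the left of 0 in osteoblast-like cells at −4.06.

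Between osteoblast-like and chondrocyte-like cells, 3 of 9 members were higher and 1 lower in osteoblast-like cells, where 12.1% of all genes tested passed, 5.75% higher and 6.36% lower. Prrx1 (log2 fold change 4.29, SE 0.63, adjusted p = 0.00030), Twist1 (3.74, SE 0.69, adjusted p = 0.0013), and Osr1 (3.79, SE 1.13, adjusted p = 0.043) were higher. Osr2 was lower (−4.06, SE 1.05, adjusted p = 0.015), on 2 UMIs in osteoblast-like and 49 in chondrocyte-like cells, all 49 in library 2. Without chondrocyte-like replicate 2 its value was 2.24 (adjusted p = 0.78), and it was lost without osteoblast-like replicate 1 (adjusted p = 0.125) or 2 (0.138) and without integration of the libraries (−2.52, adjusted p = 0.14). Osr1 was lost with any 1 of the 6 sums of the 3 classes left out (adjusted p 0.056 to 0.266), the highest without chondrocyte-like replicate 2. With either osteoblast-like sum left out, 2 members passed. Tbx18 (2.16, SE 0.73, adjusted p = 0.072) and Pitx1 (−1.48, SE 0.52, adjusted p = 0.087) did not pass without a block, and with the library as a block both did (adjusted p 0.031 and 0.032), for 6 members in all. Prrx2 (0.49), Tbx15 (0.59), and Twist2 (−0.84) did not pass, with adjusted p of 0.82, 0.50, and 0.84. The median of the members was 0.59, against 0 over all genes.

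Lepr+ stromal-like cells numbered 7 in library 2, under the minimum of 10, so fibroblast-like cells were compared with them in a fit with a minimum of 5 cells, which was added after the data had been seen. In it 3 of 9 members were higher in fibroblast-like cells and none was lower, where 6.79% of 9546 genes passed, 3.59% higher and 3.2% lower. These 3 would not have passed its count filter without the fibroblast-like sums. Osr1 (log2 fold change 9.95, adjusted p = 0.0040) and Osr2 (9.18, adjusted p = 0.0094) had no UMI in Lepr+ stromal-like cells, so that their fitted values are no ratios, and Prrx2 (5.54, adjusted p = 0.012) had 2. By CPM, the Prrx2 ratio of fibroblast-like to Lepr+ stromal-like cells was 22.2 (5.50–193) in library 1. In library 2 it had a lower limit of 1.748 from counting error. With 3 UMIs set for Lepr+ stromal-like cells of library 2 as the floor, it would be 2.157. Prrx1 (0.76, SE 0.55, adjusted p = 0.53), Twist1 (0.30, adjusted p = 0.89), Twist2 (0.40, adjusted p = 0.89), Tbx15 (0.75, adjusted p = 0.49), Tbx18 (0.045, adjusted p = 1.0), and Pitx1 (2.43, adjusted p = 0.067) did not pass. The median of the members was 0.76, against 0.15 over all genes. The 7 cells of library 2 carried fibroblast markers at 17660 CPM, against 438 CPM in library 1, with 6 of 12 at 0 in each, and their part in these values was not tested.

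Likeness to Prrx1 was measured as Pearson's r of log2(CPM + 10) with Prrx1 over the 7 tested classes, within each library, and the smaller of the 2 values was taken. The points share their libraries and depth, and r is given as a description. It was 0.74 for Tbx18, 0.71 for Prrx2, 0.71 for Tbx15, 0.67 for Osr1, and 0.66 for Twist2. Among 9842 genes these values ranked 230, 303, 306, 446, and 485. Twist1 had 0.28 (rank 2558), Osr2 had 0.17 (rank 3467), and Pitx1 had −0.31 (rank 7934). These smaller values all came from library 2, and in library 1 r was 0.48 for Twist1, 0.59 for Osr2, and 0.24 for Pitx1. Thus 5 factors had an r of at least 0.66 in each library, where 0.66 is the lowest value among them. They did not follow Prrx1 at every step. Between osteoblast-like and chondrocyte-like cells, Prrx1 differed by a log2 fold change of 4.29, whereas Prrx2 (0.49), Tbx15 (0.59), and Twist2 (−0.84) did not pass. Osr1 and Twist2 were low in all tested classes but fibroblast-like cells, so their r rests mostly on that class. Tbx18 had 5 UMIs in fibroblast-like cells of library 1. Tbx18, Osr1, and Twist2 had also passed the count filter through the fibroblast-like sums alone. Of the 7 classes, fibroblast-like cells were the highest in Prrx1. A high r was thus favoured in advance for Tbx18, Osr1, and Twist2, and their ranks are no independent support. Twist1, Osr2, and Pitx1 did not reach 0.66 in either library, and for Osr2 the libraries lay far apart. Without skeletal muscle-like cells, Twist1 had 0.56 and Tbx18 0.91, while Osr2 had 0.21 and Pitx1 −0.29. With 1 CPM added in place of 10, the values were 0.74 for Tbx15, 0.62 for Osr1, 0.60 for Prrx2, 0.59 for Twist2, 0.52 for Tbx18, 0.13 for Twist1, 0.08 for Osr2, and −0.37 for Pitx1. The Lepr+ stromal-like, smooth muscle-like, and tenocyte-like classes were among those that did not enter r. In Lepr+ stromal-like cells, Prrx2, Osr1, and Osr2 had at most 2 UMIs at a high level of Prrx1. Smooth muscle-like cells of library 2, at 631 CPM of Prrx1, had no UMI of Prrx2, Tbx15, or Osr2. They had 6 UMIs each of Tbx18 and Osr1 and 4 of Twist2. Tenocyte-like cells of library 2 had 155 Prrx2 and 26 Tbx15 UMIs beside 164 of Prrx1. Among the genes most like Prrx1, members left out, were Nfib (0.95), Spry1 (0.94), Gstm2 (0.94), and Scand1 (0.92). The measure does not weigh the size of a difference. Scand1 was at 255 and 287 CPM in fibroblast-like cells of libraries 1 and 2, 147 and 156 CPM in chondrocyte-like cells, and 278 and 400 CPM in B cell-like cells. Nfib encodes a nuclear factor I protein, Spry1 a feedback inhibitor of receptor tyrosine kinase signaling, and Gstm2 a glutathione transferase.

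**Figure D3:**
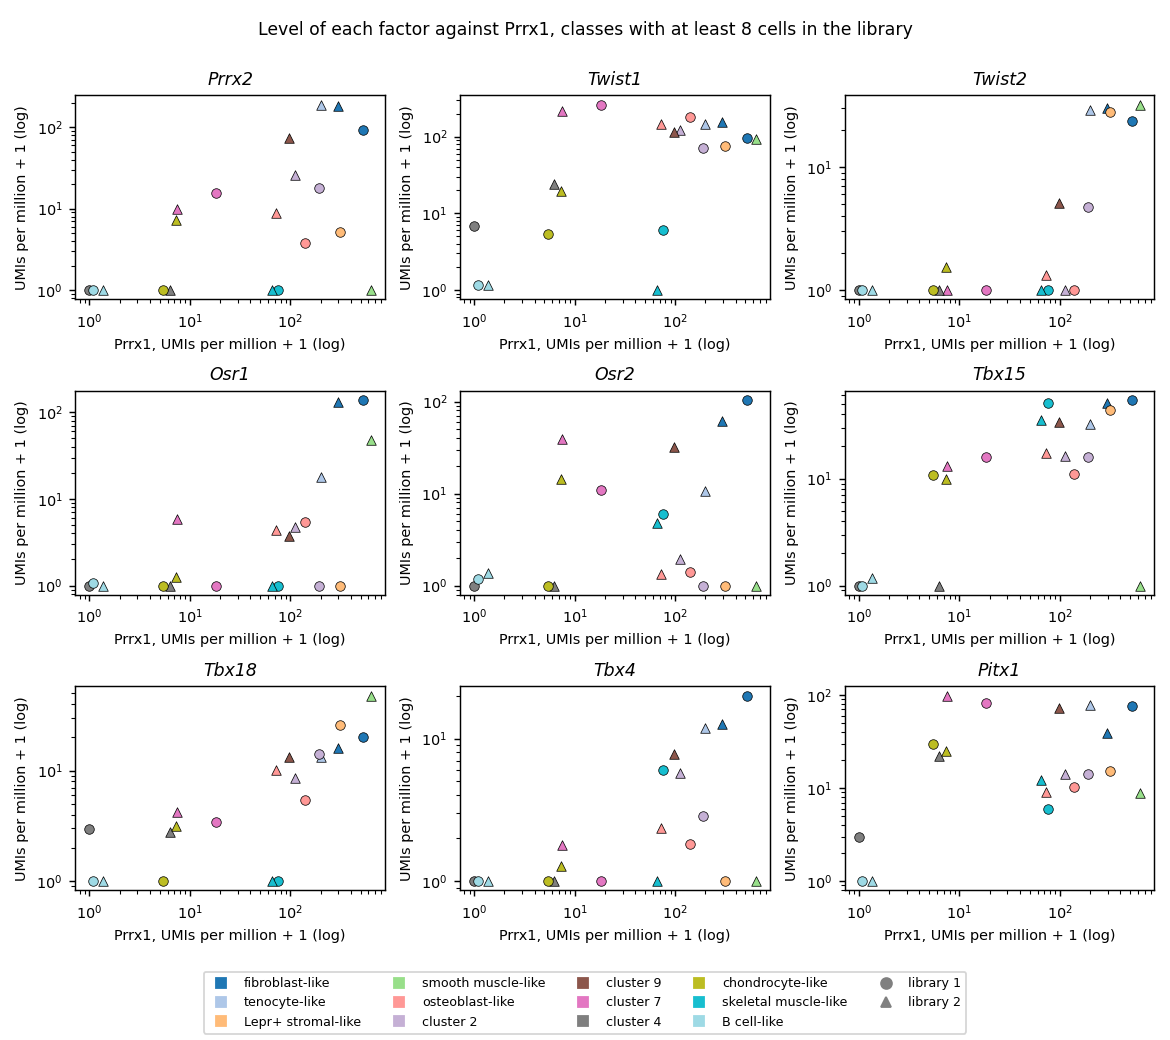
Level of each of the other 9 factors (vertical axis) against Prrx1 (horizontal axis), both as CPM + 1 on log axes, with a point for each class in each library that held at least 8 of its cells, colored by class, circles for library 1 and triangles for library 2. Twist1 and Pitx1 are high in cluster 7, at 17.2 and 6.45 CPM of Prrx1, whereas Osr1 and Osr2 are at 0 in Lepr+ stromal-like cells of library 1, at 315 CPM of Prrx1.

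Within fibroblast-like cells, the factors were not uniform. The class joined cluster 1, led by Pi16, Mfap5, and Fbn1 (16 and 170 cells in libraries 1 and 2), and cluster 6, led by Mfap4, Eln, and Apod (4 and 123 cells), so the clusters were compared in library 2 as a description. Osr1 was at 80.6 CPM in cluster 1 and 219.8 CPM in cluster 6, a ratio of 0.367 (0.295–0.455). Osr2 went the other way, with 71.1 CPM in cluster 1 and 42.7 CPM in cluster 6, a ratio of 1.66 (1.16–2.42). Prrx1 was at 276.9 CPM in cluster 1 and 327 CPM in cluster 6, a ratio of 0.848 (0.735–0.979). Prrx2 (0.711, 0.594–0.852), Twist1 (0.747, 0.615–0.909), Tbx15 (0.538, 0.3798–0.762), and Twist2 (0.466, 0.293–0.738) were also lower in cluster 1 beyond counting error. The intervals of Tbx18, Tbx4, and Pitx1 included 1. In library 1, Osr1 was at 115 CPM (74.6–170.2) in cluster 1 and 237 CPM (118–424) in the 4 cells of cluster 6, and Osr2 at 119.9 CPM (78.3–176) and 21.6 CPM from 1 UMI. Among osteoblast-like cells of library 2, Twist1 was at 128 CPM in cluster 0 (led by Ifitm5 and Bglap3, 133 cells) and 168 CPM in cluster 11 (led by Gal and Bglap, 38 cells), a ratio of 0.759 (0.625–0.924). In library 1 it was at 148 CPM (129–168) and 235 CPM (203–269), again lower in cluster 0. Prrx1 did not differ between these clusters beyond counting error in library 2, with a ratio of 1.17 (0.872–1.57).

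**Figure D4:**
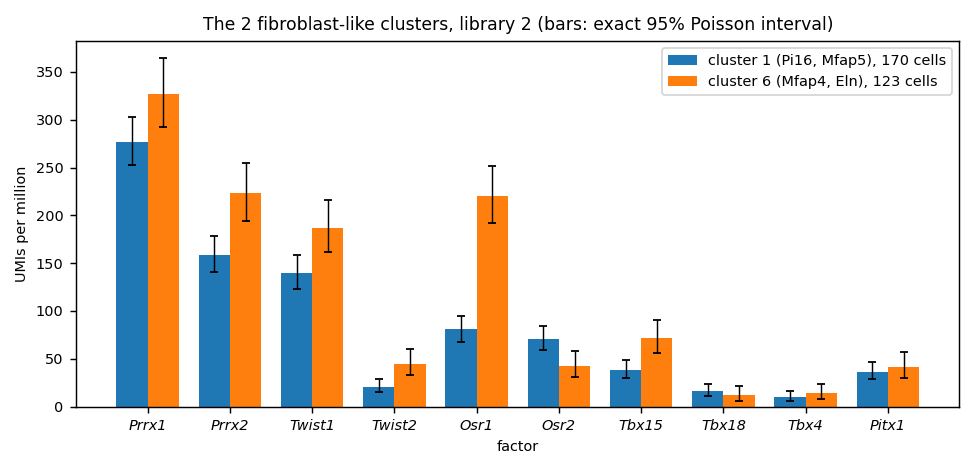
Level of the 10 factors in clusters 1 and 6 of fibroblast-like cells in library 2, as CPM with exact Poisson 95% intervals. Osr1 is higher in cluster 6 (219.8 against 80.6 CPM) and Osr2 in cluster 1 (71.1 against 42.7 CPM).

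Single cells with and without a Prrx1 UMI were compared within a class. In fibroblast-like cells of library 2, 237 cells had a Prrx1 UMI and 56 had none, at medians of 9535 and 6831 UMIs. Prrx2 was at 189 CPM in cells with and 143 CPM in cells without a Prrx1 UMI, a ratio of 1.32 (1.01–1.76). The ratios of Twist1 (1.04, 0.795–1.37), Osr1 (0.994, 0.745–1.35), and Osr2 (0.959, 0.632–1.51) were near 1, and for every other member except Prrx2 the interval also included 1. The Osr1 ratio joined opposite values of the clusters, 0.581 (0.389–0.890) in cluster 1 and 1.71 (1.12–2.74) in cluster 6. In osteoblast-like cells, the Twist1 ratio was 0.682 (0.534–0.879) in library 1, from 74 cells with and 14 without a Prrx1 UMI, at medians of 29340.5 and 20679 UMIs. In library 2 it was 0.935 (0.758–1.16), from 97 and 74 cells at medians of 21163 and 7531.5 UMIs. The Prrx2 ratio in library 2 was 0.381 (0.152–0.942), on 11 and 12 UMIs. Cells with a Prrx1 UMI were deeper in each of these groups, and the part of depth in these ratios was not tested.

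**Figure D5:**
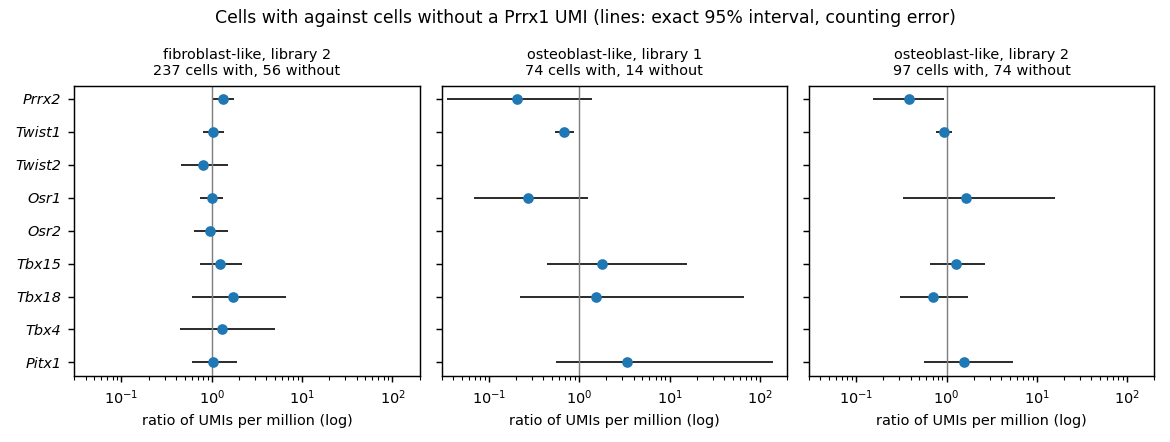
Ratio of CPM in cells with a Prrx1 UMI to cells without, for each other factor in fibroblast-like cells of library 2 and osteoblast-like cells of each library, on a log axis with exact 95% intervals that cover counting error. Points lie near 1 for Twist1, Osr1, and Osr2 in fibroblast-like cells, and Twist1 lies at 0.682 and 0.935 in osteoblast-like cells of libraries 1 and 2.

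As a setting for the members, 48 further limb mesenchyme factors were followed, of which 30 passed the count filter. They comprised limb patterning factors, mesenchymal zinc finger and bHLH factors with their partners, and connective tissue factors. Between fibroblast-like and osteoblast-like cells, 8 of 30 were higher and 4 lower in fibroblast-like cells, with 5 of 9 connective tissue factors higher and none lower, 2 of 10 limb patterning factors higher and 4 lower, and 1 of 11 zinc finger and bHLH factors higher, beside 10.6% higher and 6.88% lower over all genes tested. The median over the 30 was 0.31. Listed factors that passed the count filter through the fibroblast-like sums could hardly be called lower there, here and in the comparisons below. Which of them did so was not worked out, so calls of listed factors as higher in fibroblast-like cells are no independent support. The largest values were those of Meox2 (7.44), Meox1 (5.46), and Barx1 (5.40), and the smallest those of Tbx2 (−6.03), Irx5 (−4.68), and Irx3 (−3.22). Meox1 and Meox2 are homeobox factors of somites and limb muscle patterning, and Irx3 and Irx5 are Iroquois homeobox factors of limb bud patterning. Meox2 had 137 and 94.0 CPM in fibroblast-like cells and 2 UMIs in osteoblast-like cells, while Tbx2 had 64.0 and 41.0 CPM in osteoblast-like cells and 3 UMIs in fibroblast-like cells. Without osteoblast-like replicate 1, 8 listed factors passed in place of 12.

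Against chondrocyte-like cells, 12 of the 30 listed factors were higher and 2 lower in fibroblast-like cells, beside 12.2% and 9.61% of all genes tested, with a median of 0.47. Meox1 (7.85), Nr2f2 (7.59), and Meox2 (5.07) were at the top, the first and second of them with no UMI in chondrocyte-like cells, and Id1 (−3.39), Shox2 (−1.90), and Zeb1 (2.10) had the smallest values among those that passed. Id1, an inhibitor of bHLH dimers, was at 392 and 354 CPM in chondrocyte-like cells and 45.6 and 48.6 CPM in fibroblast-like cells. Between osteoblast-like and chondrocyte-like cells, 5 of 30 were higher and 1 lower in osteoblast-like cells, beside 5.75% and 6.36% of all genes tested, with a median of 0.29. Tbx2 (6.16), Nr2f2 (5.33), and Zeb2 (5.06) had the largest values and Id1 (−3.79) and Irx5 (3.43) were among the smallest of those that passed. With the library as a block 11 passed, and without osteoblast-like replicate 1, 3 passed. Against Lepr+ stromal-like cells, in the fit with a minimum of 5 cells, 1 of 31 was higher (Meox2, 6.103) and 5 were lower in fibroblast-like cells, with Id4 (−3.82), Irx5 (−3.71), and Irx3 (−3.55) the lowest, beside 3.59% of all genes higher and 3.2% lower.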

How the data were processed

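Reads had been processed by the authors in Cell Ranger (version 6.1.2, build mm10 per the labels). What they deposited are UMI counts for each gene and barcode, without normalization. The authors name default parameters, in a passage on the human genome, and do not spell out strand and multimapping settings. Prrx1, Twist2, Osr1, Tbx15, Tbx18, and Pitx1 overlap annotated antisense genes, and Prrx1, Twist2, and Pitx1 also overlap annotated genes of the same strand. Reads of such pairs may not be fully separated. Coordinates are those of GENCODE M21 (GRCm38), which held 32158 of the 32285 gene identifiers. Promoter windows came from RefSeq.

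Libraries 1 and 2 held 9932 and 3659 barcodes and 100808649 and 33306452 UMIs. Scrublet in scanpy 1.11.5 marked 124 cells (1.98%) and 1 cell (0.0346%) as doublets, so that the caller did not work in library 2, and none were removed. Seurat 5.3.0 joined the kept cells of both libraries by canonical correlation analysis (R 4.3.3; 3000 variable genes without members and listed factors, 30 anchor dimensions, 15 components, Louvain resolution 0.8), and stromal cells were clustered again. The linear algebra kernel was fixed, because another kernel shifted cluster borders. A marker counted for a cluster at a log2 fold of at least 1 with 10 CPM added and at least 20% of cells with a UMI. A name required 3 markers, 1 of them among the 10 leading genes, and no other class with more there. The naming rule was chosen with the clusters in view, and the authors' own cell names were not used.

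UMI sums per library and class, 14 in all, were tested with edgeR 4.0.16 (filterByExpr, TMM, quasi-likelihood F test). Same-numbered sums come from the same library, which pairs them, and their deviations correlated at 0.0674 to 0.388 (median 0.180) over 21 pairs of classes. DESeq2 1.42.0, other scalings, filters, clusterings, and sums left out were alternatives. Intervals used scipy 1.17.1, and UMIs rather than reads were counted.

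Members and lists were chosen with earlier results of these data known. Named genes were all members, the 5 genes most like Prrx1, and, per comparison, the 3 listed factors with the largest and the 3 with the smallest fold change among those past the threshold. Some genes that this rule names are not reported here. Leading genes identify clusters. The contrast with Lepr+ stromal-like cells had been planned in the fit with at least 10 cells and could not be made there.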

Additional observations from a re-analysis of the deposited data

Results flagged for a closer look

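Reporter sequences, which no comparison above uses, were found in libraries labelled wild type, above the 3 UMIs that a count of 0 allows. In kept barcodes, tdTomato had 1482 UMIs in library 1 and 4627 in library 2, and EGFP had 6837 UMIs in library 2 and none in library 1. In library 2, EGFP was at 5103 CPM in cluster 4 and 1438 CPM in cluster 7, where Prrx1 was at 5.29 and 6.45 CPM, and at 11.2 CPM in fibroblast-like cells, where Prrx1 was at 295 CPM. In the same library tdTomato was at 624 CPM in cluster 9 and 537 CPM in fibroblast-like cells, and at 48.6 CPM in B cell-like cells. No group held 4 or more samples, so no sample was tested for standing apart from its group.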

How the results depend on the processing

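Across alternatives with a test, 303 member values kept direction and side of the threshold, 3 fell short of it, and 6 newly passed. Among these alternatives, the removal of marked doublets repeated the main fit, since no class in that fit held a marked doublet. It is counted here and among the 13 settings, and its agreement was fixed in advance. Values in 1 library alone were log2 ratios on total UMIs with 0.5 UMI added, and 42 lay within 1 SE of the model value and 29 further off. The model is on the TMM scale, so these moves include the change of scale. Among values past the threshold 1 turned, Osr2 in osteoblast-like against chondrocyte-like cells (0.14 without replicate 2). In library 1 that value rests on 1 UMI in osteoblast-like and none in chondrocyte-like cells. It thus depends on the added 0.5 UMI and is no measured reversal. Values short of the threshold were not counted as turned here, whichever direction they took. Twist1 in fibroblast-like against osteoblast-like cells was short of it, with a log2 fold change of −0.81 in the model. Its CPM ratio in library 2 was 1.095 (0.955–1.25), an interval that includes 1. That ratio is on total UMIs, where the median of all genes lay at a log2 value of 0.50, so these values do not show a turn. With 1 class sum left out, an alternative chosen after seeing the data, 135 kept their call, 19 lost it, 1 gained it, and 4 turned, all between osteoblast-like and chondrocyte-like cells. These were Prrx2 (−0.42 without osteoblast-like replicate 2 and −0.15 without chondrocyte-like replicate 1), and Twist2 (1.51) and Osr2 (2.24) without chondrocyte-like replicate 2. The chondrocyte-like sum that remained for Twist2 and Osr2 held no UMI of either, against 1 and 2 UMIs in osteoblast-like cells. Over the sums left out, Prrx2 ranged from −0.42 to 5.79, Twist2 from −2.39 to 1.51, and Osr2 from −4.83 to 2.24. Members called then ranged from 4 to 7 between fibroblast-like and osteoblast-like cells, 5 to 9 against chondrocyte-like cells, 2 to 3 between osteoblast-like and chondrocyte-like cells, and 7 to 10 for any difference, and listed factors from 8 to 13, 10 to 14, and 3 to 6. Between osteoblast-like and chondrocyte-like cells, listed factors called numbered 13 without a count filter and 11 with the replicate block, in place of 6. The block moved no other count of members or listed factors by over 1.5 times, and beside Prrx1, Tbx18, and Pitx1 above it changed no call of a member. Of the calls in fibroblast-like against osteoblast-like cells, Tbx15 passed in 11 of 13 settings, and Prrx2, Osr1, Osr2, and Pitx1 in 13 of 13. The cause of these changes was not tested. Depth limits Tbx4 and Twist2, with 11 and 24 UMIs in all kept cells of library 1, and every class of under 30 cells.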
